A study of Mus musculus with 14 samples.

Results

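The 10 genes described here code for the core enzymes of de novo lipogenesis, the synthesis of fatty acids from carbohydrate, and for the regulators that set their transcription: Slc25a1, Acly, Acss2, Acaca, Acacb, Fasn, Me1, Thrsp, Srebf1 and Mlxipl. They were chosen by name for their place in the pathway, with earlier results of these data known. Counts of members set against all genes are therefore descriptive. All 10 were among the 38553 genes measured. RNA came from adipocytes of male C57BL/6 mice, freed from fat pads with collagenase and taken as the layer that floats. Mice ate either regular chow (the normal diet) or a high-fat diet for 16 weeks, starting at weaning when they were 3 weeks old, and no group carried a transgene or other agent in the labels. Epididymal (visceral white) and inguinal (subcutaneous white) adipocytes each had 3 libraries per diet, numbered 0, 1 and 2, and interscapular brown adipocytes had 1 library per diet, 14 libraries in all. The collagenase digestion lasted 20 min for white fat and 40 min for brown fat, so brown and white libraries also differ in this. Each library pooled tissue from 3 to 5 mice, so the spread between libraries is that between pools. The submitters describe the 3 libraries of a white group as biological replicates. Levels are in FPKM, a fragment count divided by transcript length and by the size of the library, which allows genes of different length to be set side by side. The files give FPKM without read counts, so the depth behind each value was unknown and precision rests on the spread between libraries.

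In de novo lipogenesis, mitochondrial citrate leaves through the citrate carrier Slc25a1 and is cleaved in the cytosol by ATP citrate lyase (Acly) to acetyl-CoA, which the synthetase Acss2 can also make from acetate. Acetyl-CoA carboxylase turns acetyl-CoA into malonyl-CoA, and fatty acid synthase (Fasn) joins these units into palmitate with NADPH, part of which malic enzyme (Me1) supplies. In fat and liver the pathway is known to respond to insulin through SREBP-1 (Srebf1) and to glucose through ChREBP (Mlxipl).

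The promoter sequences of the genes whose levels turned on diet are shown first, because 4 of them were higher and 1 was lower in epididymal adipocytes of mice on the high-fat diet. They are from RefSeq on GRCm38.p6, the reference release of the mm10 build used for the libraries, and each run holds the 250 bases before a RefSeq start site, 5′ to 3′ on the gene's own strand. Capitals mark matches, on either strand, to the CCAAT box (CCAAT), the GC box (GGGCGG), the palindromic E-box (CACGTG) and the TATA box (TATAAA). The Acss2 window is on the plus strand at chr2:155517793-155518042, the Slc25a1 window on the minus strand at chr16:17928220-17928469, the Fasn window on the minus strand at chr11:120824548-120824797, the Me1 window on the minus strand at chr9:86695915-86696164, and the Acacb window on the plus strand at chr5:114165268-114165517. The protein-coding genes themselves span chr2:155518043-155562743 (Acss2), chr16:17925211-17928219 (Slc25a1), chr11:120805958-120825166 (Fasn), chr9:86581363-86695914 (Me1) and chr5:114146321-114250761 (Acacb), so that the windows of Fasn and Acacb belong to start sites inside the annotated gene. Of the 2 Me1 windows the one outside the gene is shown.
Acss2: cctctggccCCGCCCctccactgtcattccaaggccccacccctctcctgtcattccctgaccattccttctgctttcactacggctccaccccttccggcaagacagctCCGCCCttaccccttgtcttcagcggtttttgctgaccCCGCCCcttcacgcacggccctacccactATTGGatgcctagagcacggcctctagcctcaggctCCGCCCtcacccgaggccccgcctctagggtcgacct
Slc25a1: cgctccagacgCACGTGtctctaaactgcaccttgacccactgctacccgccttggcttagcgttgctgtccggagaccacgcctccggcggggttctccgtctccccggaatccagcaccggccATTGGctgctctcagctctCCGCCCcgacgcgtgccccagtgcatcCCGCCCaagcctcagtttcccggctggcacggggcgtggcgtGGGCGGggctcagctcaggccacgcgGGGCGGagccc
Fasn: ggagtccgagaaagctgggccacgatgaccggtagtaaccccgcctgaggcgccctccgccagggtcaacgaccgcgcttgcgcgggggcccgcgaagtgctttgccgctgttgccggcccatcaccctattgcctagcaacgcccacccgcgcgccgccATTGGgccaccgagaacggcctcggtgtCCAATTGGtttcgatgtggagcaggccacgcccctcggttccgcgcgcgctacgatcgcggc
Me1: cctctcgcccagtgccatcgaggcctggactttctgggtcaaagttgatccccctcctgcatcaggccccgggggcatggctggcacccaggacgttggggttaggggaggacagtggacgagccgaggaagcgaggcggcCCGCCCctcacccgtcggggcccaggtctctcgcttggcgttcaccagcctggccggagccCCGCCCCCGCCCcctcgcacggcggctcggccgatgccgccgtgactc
Acacb: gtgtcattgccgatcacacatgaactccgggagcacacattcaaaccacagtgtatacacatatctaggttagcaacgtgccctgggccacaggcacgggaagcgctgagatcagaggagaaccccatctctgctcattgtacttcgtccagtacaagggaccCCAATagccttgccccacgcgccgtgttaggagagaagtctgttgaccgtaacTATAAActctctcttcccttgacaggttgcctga
The Fasn run held 3 CCAAT boxes and no GC box, a pair of them side by side on opposite strands. Acss2 held 4 GC boxes and 1 CCAAT box, and Slc25a1 held 4 GC boxes, 1 CCAAT box and 1 E-box. Me1 held 3 GC boxes and no CCAAT box. Acacb, the gene that was lower on the high-fat diet, held 1 CCAAT box and the TATA letters at -34, with no GC box. Windows that also took in the 50 bases after the start were matched for all 10 genes, 14 windows in all. A CCAAT box was found in at least 1 window of 9 of the 10 genes (10 of 14 windows), against 37.4% of 32851 such windows over the RefSeq table. GC boxes were found for 6 genes (7 windows) against 35.7% of all windows, and E-boxes for Slc25a1 and Mlxipl against 7.15%. Mlxipl held the single match to TCACNCCAC, an SRE-like motif of SREBP sites that 1.24% of all windows hold. The TATA letters of Acacb occur in 13.6% of all windows. These matches describe letters in short windows and not binding, and the window listed for Acaca also lay at a start inside the gene.

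The libraries carried the marker of their label, with exceptions that touch the inguinal results and 1 epididymal library. Adiponectin (Adipoq) lay between 919 and 2386 FPKM in the 12 white libraries. The brown adipocyte gene Ucp1 was 121 FPKM in brown adipocytes on the normal diet and 503 FPKM on the high-fat diet, and at most 36.2 FPKM in any white library. Inguinal normal-diet replicates 0 and 2 stood apart: their mean log2 level of 12 adipocyte markers was 0.80 and 0.95 below the white mean, and the other white libraries were between 0.26 below and 0.45 above it. The summed level of 12 lymphocyte markers was 651 and 961 FPKM in these libraries, 77.4 FPKM in replicate 1 and at most 18.1 FPKM in every other white library. In epididymal normal-diet replicate 2 the sum of 6 epididymis markers was 38.3 FPKM, against at most 1.42 FPKM in every other library. The part of this in the members' results was not tested. The mitochondrial genes' share of protein-coding FPKM was between 40.3% and 66.7% in epididymal normal-diet libraries and between 26.9% and 37.0% in high-fat libraries, with no overlap. In inguinal normal-diet replicates 0 and 2 it was 52.1% and 60.7%, against 20.6% in replicate 1 and between 26.9% and 35.2% in the high-fat libraries. Its part in the members' results on the deposited scale was not tested. Values rescaled without it are given for some members only, and counts of members called on such scales are given further below. In bulk RNA, fewer cells of a type and less RNA per cell cannot be told apart.

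Together the 10 genes made up between 0.31% and 0.53% of the FPKM of protein-coding genes outside the mitochondrial genome in each white library. Fasn was the most abundant member in the high-fat libraries and ranked between 50 and 209 among protein-coding genes over the white libraries. Thrsp, which codes for a small nuclear and cytosolic protein that promotes lipogenesis, had group means from 210 to 485 FPKM. At the low end, Mlxipl had group means from 27.0 to 33.1 FPKM, and Acacb ranked between 1450 and 6894. Fasn took between 17.4% and 20.5% of the members' summed FPKM in epididymal normal-diet libraries and between 30.8% and 33.6% on the high-fat diet.

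**Figure D1:**
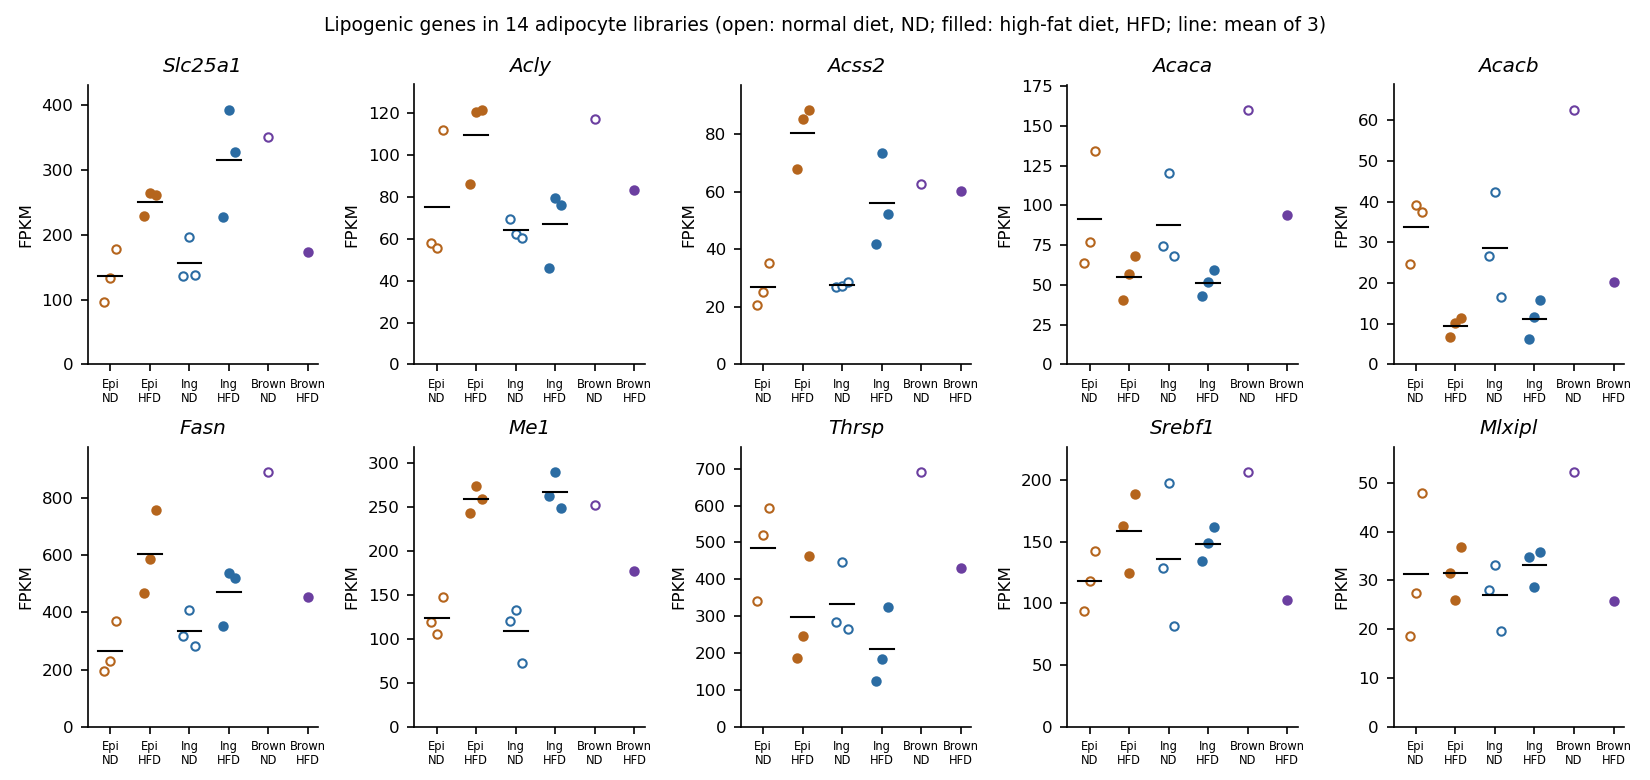
FPKM of each of the 10 genes in the 14 libraries (y axis, linear and from 0) by depot and diet (x axis), with open points for the normal diet, filled points for the high-fat diet and a line at the mean of 3 libraries. The high-fat points of Acss2 and Me1 lie above all normal-diet points in both white depots and those of Acacb lie below them.

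Members were called in both directions with diet. In epididymal adipocytes 4 of the 10 were higher on the high-fat diet (Acss2, Fasn, Me1 and Slc25a1), 1 was lower (Acacb) and 5 did not pass the test, which was limma on log2(FPKM + 0.5) with a Benjamini-Hochberg adjusted p under 0.05 over 14959 genes. Of all genes tested, 12.2% were called higher and 7.35% lower. The median log2 difference was 0.51 for the members and 0.07 for all genes. In inguinal adipocytes 3 members were higher (Me1, Acss2 and Slc25a1), 1 was lower (Acacb) and 6 did not pass, against 9.3% of all genes called higher and 10.2% lower. The median there was 0.26 for the members and -0.011 for all genes. The 4 members called higher in epididymal adipocytes also had groups that did not overlap, as did 25.7% of all genes in that direction. Of the inguinal members, 3 lay wholly above and 2 (Acacb and Acaca) wholly below, where 15.8% and 17.3% of all genes did. The inguinal split depended on scale: with each library centred on its 12 adipocyte markers it was 0 higher and 4 lower, and the median of all genes then fell to -0.67.

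The genes that supply cytosolic acetyl-CoA were higher on the high-fat diet for the carrier and the acetate enzyme. Slc25a1 measured 96.9, 133 and 178 FPKM in epididymal adipocytes on the normal diet and 229, 265 and 261 FPKM on the high-fat diet. No normal-diet library reached the lowest high-fat one. Its mean was 1.85-fold higher, a log2 difference of 0.93 ± 0.26 (SE, n = 3 and 3, limma adjusted p = 0.0271). In inguinal adipocytes it measured 137, 196 and 138 FPKM on the normal diet and 227, 393 and 328 FPKM on the high-fat diet. Here too the groups did not overlap, and the mean was 2.01-fold higher (log2 difference 0.99 ± 0.26, limma adjusted p = 0.0211). The epididymal call was lost on leaving out any 1 high-fat library or normal-diet replicate 0 or 1 (limma adjusted p from 0.0600 to 0.103), and the inguinal call on leaving out high-fat replicate 1 or 2 or normal-diet replicate 0 or 2 (0.0657 to 0.0915).

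Acss2, which activates acetate, rose in both depots, in epididymal adipocytes by more than any other member. Its epididymal levels were 20.8, 25.2 and 35.1 FPKM on the normal diet and 68.0, 85.4 and 88.5 FPKM with high-fat feeding. The lowest high-fat library was well above the highest normal-diet library. The mean was 2.98-fold higher, with a log2 difference of 1.58 ± 0.23 (95% interval 1.08 to 2.09, limma adjusted p = 0.000576). In inguinal adipocytes Acss2 measured 26.9, 27.4 and 28.8 FPKM on the normal diet, a narrow spread, and 42.0, 73.5 and 52.3 FPKM with high-fat feeding. The groups did not overlap, and the log2 difference was 0.96 ± 0.23 (limma adjusted p = 0.0141). Leaving out inguinal high-fat replicate 1 ended that call (log2 difference 0.75, limma adjusted p = 0.0625). Against normal-diet replicate 1 alone the log2 difference was 0.98, a comparison with 1 library. The epididymal call passed with each library left out in turn.

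Acly, which makes acetyl-CoA from citrate, did not pass in either depot. Its epididymal levels were 57.8, 55.5 and 112 FPKM on the normal diet and 86.3, 120 and 121 FPKM on the high-fat diet. Normal-diet replicate 2 lay within the high-fat range, so the groups overlapped, and the log2 difference was 0.60 ± 0.29 (limma adjusted p = 0.175). Without that library it was 0.93 (limma adjusted p = 0.0310). Inguinal Acly was 69.4, 62.4 and 60.2 FPKM on the normal diet and 45.9, 79.2 and 76.1 FPKM on the high-fat diet, with high-fat replicate 0 the lowest of the 6. The inguinal log2 difference was 0.030 with a 95% interval from -0.59 to 0.65.

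The acetyl-CoA carboxylases had lower means on the high-fat diet, and of the pair Acacb passed the test. Acaca codes for the cytosolic carboxylase that feeds fatty acid synthesis, and Acacb for the isoform at the mitochondrial outer membrane, whose malonyl-CoA holds back fatty acid oxidation. Acacb measured 24.7, 39.2 and 37.5 FPKM in epididymal adipocytes on the normal diet and 6.69, 10.2 and 11.4 FPKM on the high-fat diet. Every high-fat library was below every normal-diet library, and the mean was 3.59-fold lower (log2 difference -1.79 ± 0.38, 95% interval -2.62 to -0.97, limma adjusted p = 0.00584). In inguinal adipocytes Acacb was 26.7, 42.2 and 16.5 FPKM on the normal diet and 6.29, 11.6 and 15.8 FPKM with high-fat feeding. The groups were narrowly apart, normal-diet replicate 2 lying just above high-fat replicate 2, and the mean was 2.54-fold lower (log2 difference -1.29 ± 0.38, limma adjusted p = 0.0326). That inguinal call was lost on leaving out high-fat replicate 0 or 1 or normal-diet replicate 0 or 1 (limma adjusted p from 0.0716 to 0.122).

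Acaca was 63.9, 76.7 and 134 FPKM in epididymal adipocytes on the normal diet and 40.8, 56.6 and 68.5 FPKM with high-fat feeding. The groups overlapped through 1 library of each, and the log2 difference was -0.68 ± 0.31 (limma adjusted p = 0.148). Inguinal Acaca was 74.7, 121 and 68.1 FPKM on the normal diet and 42.8, 51.7 and 59.5 FPKM with high-fat feeding. These groups did not overlap, but the log2 difference of -0.73 ± 0.31 did not pass (limma adjusted p = 0.113). Acaca passed in both depots under 3 other scalings. With quantile normalization the epididymal and inguinal log2 differences were both -0.92 (limma adjusted p = 0.0189 and 0.0186). Centred on adipocyte markers they were -0.75 and -1.49 (adjusted p = 0.0474 and 0.00155). Rescaled to protein-coding genes outside the mitochondrial genome, an alternative chosen after seeing the data, they were -0.87 and -0.79 (adjusted p = 0.0205 and 0.0313).

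Fasn, which builds palmitate from malonyl-CoA, measured 196, 231 and 368 FPKM in epididymal adipocytes on the normal diet and 469, 587 and 759 FPKM with high-fat feeding. The groups did not overlap. The mean was 2.28-fold higher, a log2 difference of 1.21 ± 0.29 (95% interval 0.59 to 1.84, limma adjusted p = 0.0106), and without high-fat replicate 2 it was 1.04 (limma adjusted p = 0.0516). Inguinal Fasn was 319, 409 and 282 FPKM on the normal diet and 353, 537 and 521 FPKM on the high-fat diet. High-fat replicate 0 lay within the normal-diet range, and the log2 difference of 0.47 ± 0.29 did not pass (limma adjusted p = 0.264).

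Me1, the cytosolic malic enzyme that yields NADPH, rose with high-fat feeding in both white depots. Its epididymal levels were 119, 105 and 148 FPKM on the normal diet and 243, 274 and 259 FPKM with high-fat feeding. The high-fat libraries were close together and all above the normal-diet ones, a 2.09-fold higher mean (log2 difference 1.07 ± 0.23, limma adjusted p = 0.00586). In inguinal adipocytes Me1 was 121, 133 and 72.1 FPKM on the normal diet and 262, 290 and 249 FPKM on the high-fat diet. Again no library overlapped, and the mean was 2.46-fold higher (log2 difference 1.34 ± 0.23, limma adjusted p = 0.00251). The epididymal call was lost with quantile normalization (log2 difference 0.70, limma adjusted p = 0.0702). The inguinal call passed with each library left out in turn, but not on the scale centred on adipocyte markers (0.58, adjusted p = 0.0983). Against normal-diet replicate 1 alone the inguinal log2 difference was 1.00, a comparison with 1 library.

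Thrsp (Spot 14), a thyroid hormone-responsive gene, had lower means on the high-fat diet without passing the test on the deposited scale. Epididymal Thrsp was 342, 519 and 593 FPKM on the normal diet and 186, 246 and 464 FPKM on the high-fat diet. High-fat replicate 2 reached into the normal-diet range, and the log2 difference was -0.77 ± 0.41 (limma adjusted p = 0.223). Inguinal Thrsp was 285, 447 and 264 FPKM on the normal diet and 123, 183 and 324 FPKM on the high-fat diet. Here replicate 2 was again the highest high-fat library and overlapped, with a log2 difference of -0.73 ± 0.41 (limma adjusted p = 0.225). Epididymal Thrsp passed with quantile normalization (-1.16, limma adjusted p = 0.0413) and inguinal Thrsp centred on adipocyte markers (-1.49, adjusted p = 0.00507).

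The regulators showed no change with diet that passed the test. Srebf1, whose product SREBP-1 activates lipogenic promoters after cleavage in the Golgi, was 94.1, 118 and 142 FPKM in epididymal adipocytes on the normal diet and 163, 125 and 188 FPKM with high-fat feeding. The groups overlapped, with a log2 difference of 0.42 ± 0.29 (limma adjusted p = 0.359). Inguinal Srebf1 was 129, 197 and 81.3 FPKM on the normal diet and 134, 149 and 161 FPKM with high-fat feeding. The normal-diet libraries spread both above and below the high-fat ones (log2 difference 0.21 ± 0.29, limma adjusted p = 0.644). Mlxipl, which codes for the glucose-responsive factor ChREBP, was 18.5, 27.5 and 48.0 FPKM in epididymal adipocytes on the normal diet and 31.5, 26.0 and 36.8 FPKM with high-fat feeding. The high-fat libraries lay inside the normal-diet range (log2 difference 0.10, 95% interval -0.57 to 0.76, limma adjusted p = 0.875). Inguinal Mlxipl was 28.1, 33.2 and 19.7 FPKM on the normal diet and 34.8, 28.6 and 35.9 FPKM on the high-fat diet, overlapping, with a log2 difference of 0.31 ± 0.31 (limma adjusted p = 0.499). Isoforms of these genes, such as SREBP-1a, SREBP-1c and ChREBP-beta, share a gene-level value and could not be separated, and protein cleavage is not measured by RNA.

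**Figure D2:**
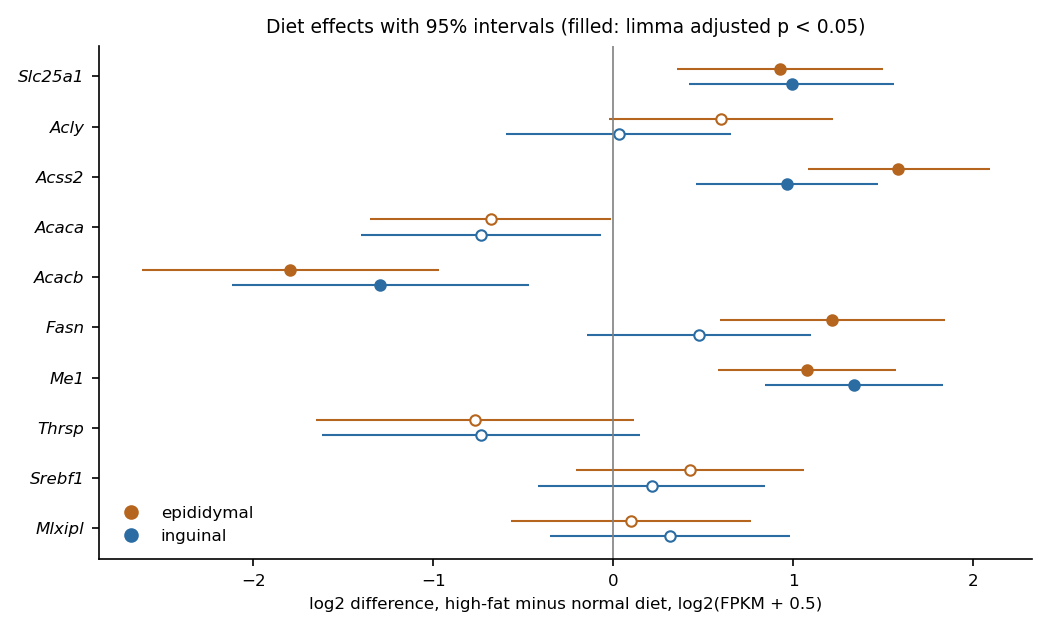
Log2 difference in log2(FPKM + 0.5), high-fat minus normal diet (x axis), for each gene (y axis) in epididymal and inguinal adipocytes, with 95% limma intervals over 12 white libraries and filled points for an adjusted p under 0.05. Acss2, Me1 and Slc25a1 are filled to the right of 0 and Acacb to the left of 0 in both depots, and Fasn is filled in epididymal adipocytes alone.

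No member differed between the white depots at the threshold. On the normal diet limma called 0 of 10 members between epididymal and inguinal adipocytes (0 at an unadjusted p under 0.05), against 6.51% of all genes. The largest difference among the members was Thrsp, with a log2 difference of 0.55 ± 0.41 (epididymal minus inguinal, limma adjusted p = 0.436). On the high-fat diet limma called 0 members (2 at an unadjusted p under 0.05), against 10.6% of all genes. Those were Acly, whose 3 epididymal libraries lay above all 3 inguinal ones (log2 difference 0.72 ± 0.29, limma adjusted p = 0.149, where 23.2% of all genes had groups apart in that direction), and Acss2, whose groups overlapped (0.55 ± 0.23, limma adjusted p = 0.178). The intervals left room for sizeable differences: that of Fasn on the high-fat diet ran from -0.26 to 0.98.

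Whether the diet effect differed between the white depots was tested by the interaction, epididymal minus inguinal diet effect. Limma called 0 of 10 members (0 at an unadjusted p under 0.05), against 7.22% of all genes. Fasn, called in epididymal and not in inguinal adipocytes, had an interaction of 0.74 ± 0.40 (95% interval -0.14 to 1.62, limma adjusted p = 0.314). That of Acss2 was 0.62 ± 0.33 (limma adjusted p = 0.299). Slc25a1, Acaca and Thrsp had values between -0.066 and 0.052. Centred on adipocyte markers, Fasn passed (interaction 1.43, limma adjusted p = 0.0361), on a scale where the median of all genes was 0.69.

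Ratios between members within a library do not depend on a single factor that scales the whole library, though quantile normalization can change them. With 3 libraries against 3 the exact permutation test cannot give a p below 0.1, so no ratio could reach 0.05. The Acss2 to Acly ratio was 0.742 ± 0.0408 (SD, n = 3) with high-fat feeding and 0.376 ± 0.0712 on the normal diet in epididymal adipocytes. No library overlapped (exact two-sided permutation p = 0.1, 0.4 adjusted over 12 comparisons). In inguinal adipocytes it was 0.844 ± 0.135 and 0.435 ± 0.0453, again apart (exact permutation p = 0.1, adjusted 0.4). The Acacb to Acaca ratio was 0.17 ± 0.00826 on the high-fat diet and 0.392 ± 0.116 on the normal diet in epididymal adipocytes, with the groups apart (exact permutation p = 0.1, adjusted 0.4). The inguinal ratio was 0.212 ± 0.0600 and 0.317 ± 0.0643, with overlap (exact permutation p = 0.2, adjusted 0.48). The Mlxipl to Srebf1 ratio overlapped between diets in both depots.

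The Fasn to Acaca ratio was chosen after its values were seen and is given without a test. It ran from 2.74 to 3.06 in epididymal normal-diet libraries and from 10.4 to 11.5 in high-fat libraries. In inguinal adipocytes it ran from 3.39 to 4.27 on the normal diet and from 8.23 to 10.4 on the high-fat diet. All 6 white high-fat libraries lay above all 6 white normal-diet libraries. In brown adipocytes the ratio was 5.56 on the normal diet and 4.80 on the high-fat diet.

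**Figure D3:**
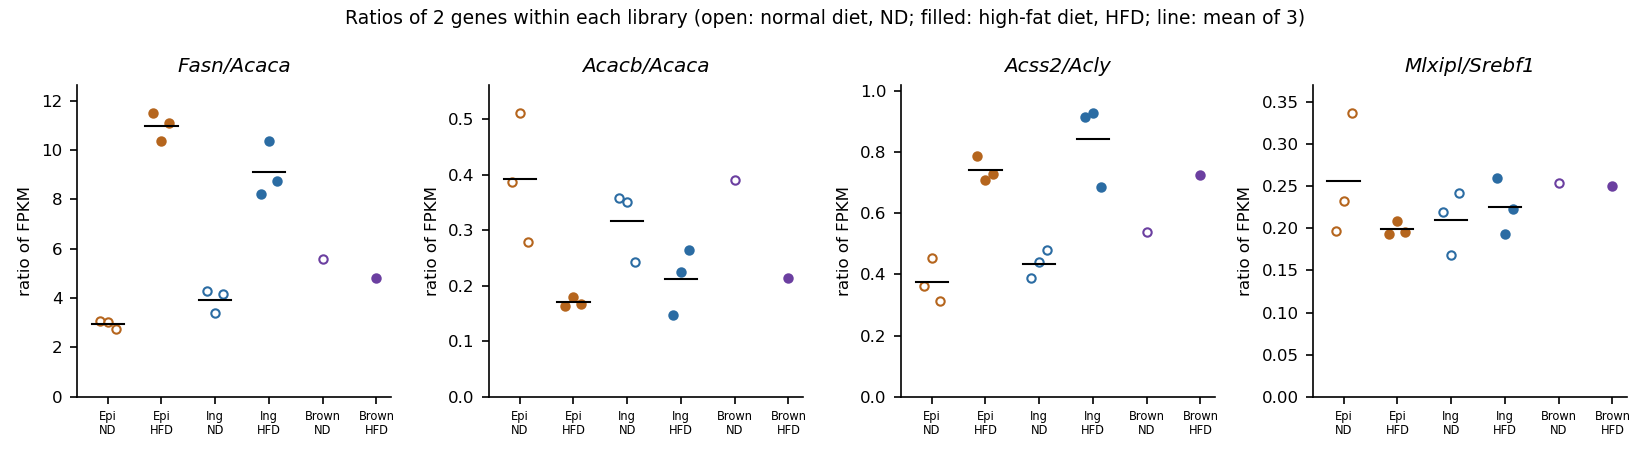
Ratio of the FPKM of 2 members within each of 14 libraries (y axis, linear and from 0) by depot and diet (x axis), with open points for the normal diet, filled points for the high-fat diet and a line at the mean of 3. The Fasn to Acaca ratio lies between 2.74 and 4.27 in white normal-diet libraries and between 8.23 and 11.5 in white high-fat libraries.

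Marker genes of other cells moved with diet, and their part in the members' results was not tested. In epididymal adipocytes the summed level of 12 macrophage markers was between 486 and 967 FPKM on the normal diet and between 1509 and 2650 FPKM on the high-fat diet, with 6 of 12 called higher. The sum of 10 endothelial markers was between 601 and 654 FPKM and between 55.6 and 109 FPKM, with 10 of 10 called lower. In inguinal adipocytes the lymphocyte sum was between 77.4 and 961 FPKM on the normal diet and between 7.21 and 15.2 FPKM on the high-fat diet, with 12 of 12 called lower. Adipocyte markers were called higher for 1 of 12 genes in epididymal and 3 of 12 in inguinal adipocytes. None of these 4 lists had a gene listed at 0 in every library of a white group. Erythroid markers were called lower for 5 of 5 genes in epididymal adipocytes (sums between 1098 and 3483 FPKM on the normal diet and between 273 and 419 FPKM on the high-fat diet) and for 4 of 5 in inguinal adipocytes (316 to 4849 and 63.2 to 149.9 FPKM). Of 10 fibroblast and progenitor markers 5 were called lower in each depot, and 1 higher in inguinal adipocytes. Of 10 tested brown adipocyte markers 2 were called higher in epididymal and 4 in inguinal adipocytes, where the 12 listed summed to between 73.4 and 209 FPKM on the normal diet and between 125 and 328 FPKM on the high-fat diet. Of the brown list, Zic1 was listed at 0 in every library of both epididymal groups and of the inguinal normal-diet group, and Slc27a2 in the epididymal high-fat group. Centring each library on the adipocyte markers left Acss2, Fasn, Me1 and Slc25a1 higher and Acacb lower in epididymal adipocytes and added Acaca (4 higher, 2 lower). In inguinal adipocytes the same centring called Acacb (log2 difference -2.04), Acaca (-1.49), Thrsp (-1.49) and Srebf1 (-0.55) lower. Acss2 and Slc25a1 then had inguinal log2 differences of 0.21 and 0.23 and Fasn one of -0.29, none passing. Against the median of all genes on that scale, -0.67, the values of Acss2, Slc25a1, Me1, Fasn, Mlxipl and Srebf1 were higher and those of Acacb, Acaca, Thrsp and Acly lower, so that Srebf1, called lower than 0, lay above that median. The protein-coding rescale gave 4 higher and 2 lower (Acacb and Acaca) in epididymal and 3 higher and 2 lower in inguinal adipocytes, and quantile normalization gave 3 higher (without Me1) and 3 lower (Acacb, Acaca and Thrsp) in epididymal and 3 higher and 2 lower in inguinal adipocytes. Over all genes the epididymal split was 1818 higher and 1100 lower as deposited and 1395 and 1580 after the protein-coding rescale, and the inguinal split was 1391 and 1523 as deposited and 382 and 4231 centred on adipocyte markers.

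**Figure D4:**
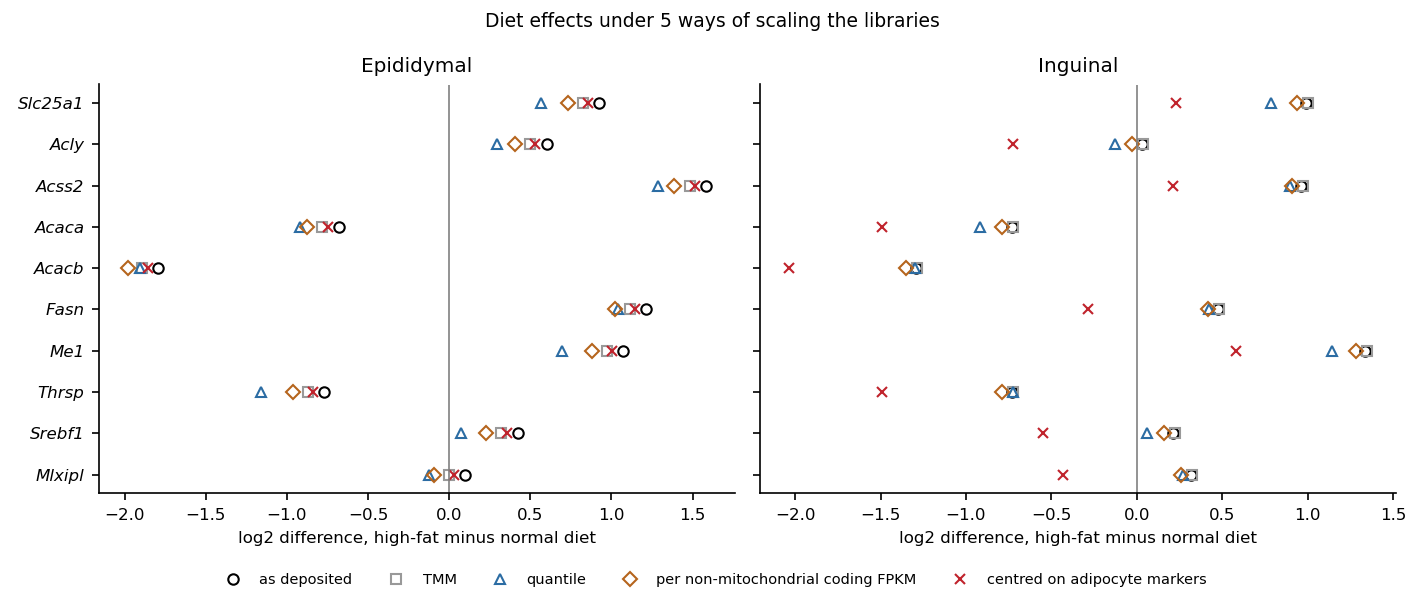
Log2 difference, high-fat minus normal diet (x axis), of each gene (y axis) in epididymal and inguinal adipocytes under 5 ways of scaling the libraries. Epididymal values stay on the same side of 0 except for Mlxipl, and the inguinal values centred on adipocyte markers lie to the left of the others, with Acly, Fasn, Srebf1 and Mlxipl crossing 0.

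Brown adipocytes on the normal diet held the highest level of 6 members in FPKM as deposited. The mitochondrial genes' share of protein-coding FPKM was 80.7% there and 82.5% on the high-fat diet, against at most 66.7% in white libraries. Its part in the brown levels was not tested. With 1 library per diet there was no test, and each difference is between 2 libraries. Depot and digestion time (40 min for brown, 20 min for white fat) cannot be told apart where brown levels are set against white ones. Fasn was 890 FPKM on the normal diet, above the highest white library (759 FPKM), and 453 FPKM on the high-fat diet. Acacb was 62.5 and 20.2 FPKM, the widest ratio of the 10 (3.09-fold). Mlxipl (52.2 and 25.7 FPKM), Srebf1 (206 and 103 FPKM), Acaca (160 and 94.3 FPKM) and Thrsp (690 and 430 FPKM) were also above every white library on the normal diet. On the high-fat diet all 10 lay within the white range. Slc25a1 was 351 and 174 FPKM, a 2.02-fold ratio, Me1 was 252 and 177 FPKM and Acly 117 and 83.1 FPKM. Acss2, at 62.9 and 60.3 FPKM, was the member nearest to equal. More than 1.5-fold higher on the normal diet were 7 of the 10 members and 10.9% of 6803 protein-coding genes with a mean of at least 5 FPKM, whose median ratio was 0.98. The direction for Fasn, Me1, Slc25a1, Acly, Srebf1, Mlxipl and, barely, Acss2 in this pair was opposite to their higher high-fat means in both white depots. Of these, Acly, Srebf1 and Mlxipl did not pass in either white depot, and Fasn did not pass in inguinal adipocytes. The difference in direction was not tested. The adipocyte gene Adipoq was 2536 FPKM on the normal diet and 1277 FPKM on the high-fat diet, and the endothelial sum 151 and 503 FPKM. The brown adipocyte sum was 502 and 1607 FPKM, the macrophage sum 30.3 and 198 FPKM and the skeletal muscle sum 107 and 218 FPKM, and the part of all these in the ratios was not tested. As a share of the FPKM of protein-coding genes outside the mitochondrial genome, the ratio was 1.79 for Fasn, 2.80 for Acacb and 0.95 for Acss2. On that scale 6 members (Thrsp, at 1.46, no longer among them) and 7.95% of the same genes were more than 1.5-fold higher on the normal diet. As such a share, Fasn, Acacb, Mlxipl, Srebf1, Acaca, Thrsp and also Acly lay above every white library in brown adipocytes on the normal diet.

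Genes around the pathway were read from lists of known roles, which were also chosen with earlier results of these data known. The shares of all genes called were 12.2% higher and 7.35% lower in epididymal and 9.3% and 10.2% in inguinal adipocytes. Among 13 genes of cytosolic NADPH and citrate handling, 2 were higher and 0 lower with high-fat feeding in epididymal adipocytes (median log2 difference 0.19), and 5 were higher and 1 lower in inguinal adipocytes (0.52). The epididymal count is near the share of all genes. Pgd, the second dehydrogenase of the pentose phosphate pathway, was 261 ± 12.8 FPKM (SD, n = 3) against 96.7 ± 24.5 FPKM in epididymal and 187 ± 26.0 against 62.9 ± 16.3 FPKM in inguinal adipocytes (limma adjusted p = 0.000821 and 0.00108). G6pdx, which codes for the first dehydrogenase of that pathway, was higher in epididymal adipocytes (log2 difference 0.93 ± 0.26, limma adjusted p = 0.0242). Of 14 tested desaturation and elongation genes, 5 were higher and 2 lower in epididymal (median 0.40) and 4 higher and 3 lower in inguinal adipocytes (0.17). Scd2, a stearoyl-CoA desaturase, was 236 ± 22.8 against 26.5 ± 9.41 FPKM in epididymal adipocytes (log2 difference 3.20 ± 0.30, limma adjusted p = 3.06e-05). Fads1, a desaturase of polyunsaturated fatty acids, was lower in both depots (log2 differences -0.97 and -0.79, limma adjusted p = 0.0132 and 0.0366). Elovl6, which lengthens palmitate, was lower in inguinal adipocytes (8.50 ± 2.61 to 4.48 ± 0.98 FPKM, limma adjusted p = 0.0464). Of 24 alternative settings the G6pdx call passed in 18, the inguinal Fads1 call in 13 and the Elovl6 call in 6. Each was lost on leaving out any of several single libraries: epididymal high-fat replicate 1 or 2 or normal-diet replicate 0 or 2 for G6pdx (log2 difference 0.76 to 0.95), inguinal high-fat replicate 0 or 1 or normal-diet replicate 0 or 1 for Fads1 (-0.83 to -0.65), and any inguinal library but normal-diet replicate 2 for Elovl6 (-0.98 to -0.68). Epididymal Fads1 missed the threshold when high-fat replicate 0 (-0.95) or normal-diet replicate 2 (-0.74) was left out.

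Cholesterol genes were called in 1 direction. Of 20 tested cholesterol synthesis and uptake genes known as SREBP-2 targets, 16 were higher and 0 lower in epididymal (median log2 difference 1.42) and 13 higher and 0 lower in inguinal adipocytes (1.03). Of 17 genes that process or partner SREBPs, 2 were higher and 1 lower in epididymal and 1 higher and 5 lower in inguinal adipocytes, with medians of 0.28 and -0.14, the epididymal count near the share of all genes. Insig1, which holds SREBPs in the endoplasmic reticulum and is itself an SREBP target, was higher in both depots (log2 differences 2.36 ± 0.18 and 1.59 ± 0.18, limma adjusted p = 1.02e-05 and 0.000296). Srebf2 was higher in epididymal (log2 difference 0.72, limma adjusted p = 0.0424) and lower in inguinal adipocytes (-0.96, limma adjusted p = 0.0128). The epididymal Srebf2 call passed in 8 of 24 alternative settings.

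Of 9 tested ChREBP partners and targets, 2 were higher and 1 lower in epididymal and 2 higher and 0 lower in inguinal adipocytes (medians -0.020 and -0.14). Txnip, a glucose-induced target, was lower in epididymal adipocytes (271 ± 71.4 against 735 ± 153 FPKM, limma adjusted p = 0.00393). Gpd1, which makes glycerol 3-phosphate, was higher in epididymal (log2 difference 1.45, limma adjusted p = 0.0110) and in inguinal adipocytes (1.08, limma adjusted p = 0.0458), the inguinal call passing in 9 of 24 alternative settings. Pnpla3 was higher in both depots (0.80 and 1.65, limma adjusted p = 0.0472 and 0.00173), its epididymal call passing in 8 of 24. Of 14 genes listed under control of the carboxylases, 1 was higher and 2 lower (Prkaa1 and Bcat2) in epididymal adipocytes. In inguinal adipocytes 1 was higher and 0 lower. Bcat2 codes for a branched-chain aminotransferase and is not itself a regulator of the carboxylases. Prkaa1, a catalytic subunit of AMP-activated kinase, was lower in epididymal adipocytes (log2 difference -0.72, limma adjusted p = 0.0139). Trib1, a pseudokinase adaptor for ubiquitin ligation, was higher in both depots (log2 differences 2.61 and 2.23, limma adjusted p = 0.00362 and 0.0110). Inguinal Trib1 was 36.3 ± 5.15 FPKM against 9.59 ± 8.73 FPKM on the normal diet, a wide spread. That inguinal call was lost when only the 2 groups were fitted. Over 24 alternative settings the inguinal log2 difference of Trib1 ran from 0.87 to 2.91. Of 8 tested thyroid hormone signalling genes, 2 were higher and 4 lower in epididymal adipocytes (median -0.57) and 2 higher and 1 lower in inguinal adipocytes (0.17). Klf9, a thyroid hormone-responsive factor, was lower in epididymal adipocytes (log2 difference -1.40, limma adjusted p = 0.0119). Of 19 glucose and pyruvate genes, 3 were higher and 1 lower in epididymal and 4 higher and 2 lower in inguinal adipocytes (medians 0.079 and 0.32). Pdk2, a kinase that shuts pyruvate dehydrogenase, was lower in epididymal adipocytes (log2 difference -1.33, limma adjusted p = 0.0116), and Dlat, a subunit of that complex, was higher in inguinal adipocytes (1.20, limma adjusted p = 0.0267). The epididymal glucose count, and the inguinal one for lower genes, are near the share of all genes. The ChREBP and carboxylase counts, from 9 and 14 tested genes, are also near the shares of all genes in both depots. The Dlat call passed in 15 of 24 alternative settings and was lost without inguinal high-fat replicate 1 or 2 or normal-diet replicate 0 or 2 (log2 difference 0.82 to 1.26). Without epididymal high-fat replicate 0 the calls of Pdk2 (-1.20, limma adjusted p = 0.0546) and Klf9 (-1.30, adjusted p = 0.0529) were lost, as was that of Prkaa1 without high-fat replicate 2 (-0.70) or normal-diet replicate 0 (-0.60). Of the genes named by rule from these lists, 13 of 14 higher and 5 of 9 lower calls in epididymal adipocytes, and 8 of 13 higher and 8 of 8 lower calls in inguinal adipocytes, also passed when libraries were centred on adipocyte markers.

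The likeness of level patterns was measured over all 14 libraries as the root mean square difference of centred log2 values, where 0 is an identical pattern, among 10247 genes outside the members. It is a description, since the libraries share depot, diet and scaling. Nearest to Fasn was Tecr (0.31), which codes for a reductase of very long chain fatty acid synthesis. Snx10 (0.33) was the second, and Hsd17b12 (0.33), of the same elongation cycle as Tecr, was the third. The gene nearest to Me1 was Agpat2 (0.20), an acyltransferase of triglyceride synthesis. Acss2 lay nearest to Nsdhl (0.30), a cholesterol synthesis enzyme. Thrsp lay nearest to Mettl7a1 (0.31) and Chst1 (0.32), and Mogat1 (0.33), a monoacylglycerol acyltransferase, was the third. The glutamate transporter gene Slc1a3 was nearest to Acacb (0.30). Acaca lay nearest to Sugct (0.24) and Esr1 (0.24), Acly to Abraxas2 (0.26), Slc25a1 to Cox19 (0.25), Srebf1 to Clmn (0.17) and Mlxipl to Sec16b (0.18). Among the members, Mlxipl and Srebf1 were the closest pair (0.24), followed by Fasn and Slc25a1 (0.29), and Acacb and Acss2 were the farthest apart (1.42).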

How the data were processed

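Per the labels' protocols, poly(A) RNA of adipocytes isolated with collagenase was sequenced by Illumina HiSeq. Reads were handled with TopHat2 2.0.9 and Cuffdiff 2.1.1 on mm10, per the submitters' processing notes. The deposited files hold FPKM per gene, a unit taken from these tools and the values, since no header states one. The sources used here do not give the annotation, strand setting or library scaling. Depth was unknown, so no counting interval was given. Genes that overlap members in RefSeq and had values were at most 10.9 FPKM in white libraries. Mir7116, Gm31074, Mir6921 and Mir6922, which also overlap members, had no value.

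Groups came from the sample titles. The 10 members and all gene lists were chosen with earlier results of these data known. With limma 3.58.1 (R 4.3.3), 4 group means of the 12 white libraries were fitted on log2(FPKM + 0.5), which understates changes of low genes. A filter of 0.5 FPKM or more in 3 or more libraries was applied, and all 10 members passed. Two-sided p-values were Benjamini-Hochberg adjusted over 14959 genes. Brown libraries entered no test. Beside the members, up to 2 called genes each way per list and diet contrast were named if their mean was 2 FPKM or more, and examples of these are given. For likeness, the 3 nearest protein-coding genes per member were taken and examples given. The fit was tested on simulated data.

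Alternatives were pseudocounts of 0.1 and 1, no filter and a 2 FPKM filter, TMM factors, quantile normalization, rescaling without mitochondrial genes, centring on adipocyte markers, fits of only the 2 groups compared, the replicate number as a block, each library left out, and inguinal normal-diet replicates 0 and 2 left out. Rescaling to protein-coding genes was added after seeing the data. What a replicate number marks is not in the labels. Between the high-fat depots, libraries of 1 number deviated from their group means together (correlations of 0.184, 0.111 and 0.146 over genes). In the epididymal diet contrast the correlations were 0.18, 0.0825 and 0.162, and in the other contrasts they ran from 0.00688 to 0.272. Libraries of different number were not compared in this way, so whether libraries of 1 number are pairs cannot be told in any contrast.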

Additional observations from a re-analysis of the deposited data

How the results depend on the processing

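Over pseudocounts, filters, TMM factors and the replicate block, the members kept the direction and side of each diet call, except that inguinal Acacb missed the threshold with no filter and epididymal Mlxipl, near 0, turned to -0.0016 with TMM factors. With the replicate block limma called 5 epididymal and 4 inguinal members, 0 in the other contrasts, and 3404, 3453, 1085, 1777 and 1152 genes over all. Leaving out 1 library gave 3 to 6 epididymal and 1 to 4 inguinal members, and over all genes 1819 to 3665 and 1642 to 4727 diet calls, 264 to 3092 and 783 to 2151 depot calls on the normal and high-fat diet, and 433 to 2627 interaction calls. Fitting only the 2 groups called 1 inguinal member (Me1) and 713 genes in the inguinal, 14 and 2993 in the depot contrasts. Leaving out inguinal normal-diet replicates 0 and 2 leaves 1 library in that group, which is assumed to vary like the other groups, so its counts are weak evidence: 2 members (Me1 and Acacb) and 999 genes there, and 562 and 2599 in the depot contrasts. With that setting inguinal Mlxipl was -0.0091 and Srebf1 -0.42. No filter gave 577 normal-diet depot and 695 interaction calls.

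Centred on adipocyte markers, all-gene calls were 1791 and 4613 for diet, 732 for the high-fat depot contrast and 658 for the interaction. That scale called 3 members lower in epididymal than in inguinal adipocytes on the normal diet (Fasn, Srebf1 and Slc25a1) and 1 interaction (Fasn). Inguinal diet values turned for Fasn (-0.29), Acly (-0.73), Mlxipl (-0.44) and Srebf1 (-0.55), and the normal-diet depot value of Thrsp to -0.059. Quantile normalization turned epididymal Mlxipl (-0.13) and inguinal Acly (-0.13), and the protein-coding rescale turned the same values to -0.093 and -0.027. Outside the mitochondrial genes, 1 feature took up to 88% of a library's FPKM with those genes counted in, and it weighs in any sum without them. Rescaling all values without mitochondrial genes called 0 members for diet and 3 and 8 for depot on the normal and high-fat diet. Over all genes this rescale called 570, 1226, 5999, 10946 and 222 in the 5 contrasts. With it the depot values of Thrsp (-0.79, normal diet), Acly (-1.14) and Acss2 (-1.31, high-fat diet) turned.

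Leaving out 1 library gave values from -0.22 to 0.46 for epididymal Mlxipl, -0.11 to 0.28 for inguinal Acly and -0.11 to 0.53 for inguinal Srebf1, and the inguinal Mlxipl to Srebf1 log2 ratio ranged from -0.045 to 0.220. None of these values passed the test, except inguinal Srebf1 centred on adipocyte markers and high-fat Acss2 in the rescale without mitochondrial genes. The causes of these shifts were not tested. Unknown depth limits all levels, and 3 libraries a group limit every test.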
